A study of Mus musculus with 18 samples.

Results

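The 35 genes described here encode proteins of the skeletal muscle fibre: myosins, troponins, actin and its anchors, the calcium release and uptake machinery, and muscle enzymes. They were taken by gene symbol from the 55357 genes of a table of normalized counts of mouse back skin RNA, and all 35 were found. By the fibre type in which each is best known, 14 were classed as fast fibre genes, 5 as slow fibre genes and 16 as shared. The samples were back skin of 18 mice of the FVB strain, 6 months old, with 1 library per mouse. There were 6 wild type mice (WT), 6 transgenic mice with exogenous IKKα in the keratinocyte nucleus (N-IKKα) and 6 with it in the keratinocyte cytoplasm (C-IKKα). The promoter that drives the transgenes is not given in the sources used here. WT mice are numbered 1 to 6, N-IKKα mice 7 to 12 and C-IKKα mice 13 to 18.

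Mouse back skin lies on a thin sheet of skeletal muscle, the panniculus carnosus, which twitches the skin and is cut out with the dermis when whole skin is taken. It is known as a mainly fast muscle. Fast and slow fibres differ in the forms of myosin, troponin and calcium pump that they use, and these forms are encoded by separate genes. The keratinocytes that carry the transgenes are not muscle cells, and these genes serve here as a measure of how much muscle, and of which kind, a skin sample held.

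Muscle promoters are known for sites of a few factors: the E-box CAGCTG bound by the MyoD family, the A/T-rich MEF2 site and the CArG box of serum response factor. RefSeq promoters (assembly GRCm38.p6) were matched for 28 of the 35 genes, and the 250 bases before each start were searched on both strands. The motif CAGCTG was found in 14 of the 28 (50%), against 14.7% of the 27025 mouse genes with promoters of the same length. A gene was counted if any of its promoters matched. The MEF2 site was found in 6 (21.4%, against 3.42%), the CArG box in 3 (10.7%, against 1.62%) and TATAAA in 5 (17.9%, against 14.3%). TATAAA can lie inside a MEF2 site read on the opposite strand, as it does in Myh4. A match describes the letters only. The promoters of 4 genes are shown because the results turn on them: Ckm, whose level stood for the amount of muscle, Acta1, the member with the highest level per length, Myh4, the main myosin, and Tnni1, a slow troponin gene that did not follow the others. Capitals mark the 4 motifs. Ckm is at chr7:19410844-19411093 (plus strand), Acta1 at chr8:123894776-123895025 (minus strand), Myh4 at chr11:67237562-67237811 (plus strand) and Tnni1 at chr1:135799171-135799420 (plus strand).
Ckm: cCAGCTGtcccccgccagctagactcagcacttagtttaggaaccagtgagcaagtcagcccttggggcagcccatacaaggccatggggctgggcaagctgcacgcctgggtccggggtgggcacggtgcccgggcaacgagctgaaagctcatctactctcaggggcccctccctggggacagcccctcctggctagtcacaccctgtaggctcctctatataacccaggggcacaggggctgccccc
Acta1: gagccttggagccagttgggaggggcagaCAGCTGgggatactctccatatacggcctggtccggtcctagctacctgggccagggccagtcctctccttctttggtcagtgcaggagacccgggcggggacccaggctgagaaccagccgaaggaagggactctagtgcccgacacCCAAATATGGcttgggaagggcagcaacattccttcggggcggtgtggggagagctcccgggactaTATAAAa
Myh4: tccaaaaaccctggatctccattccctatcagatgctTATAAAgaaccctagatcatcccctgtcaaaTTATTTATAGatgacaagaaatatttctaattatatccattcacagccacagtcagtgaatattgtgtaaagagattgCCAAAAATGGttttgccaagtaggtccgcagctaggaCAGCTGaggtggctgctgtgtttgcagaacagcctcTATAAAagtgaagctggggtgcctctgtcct
Tnni1: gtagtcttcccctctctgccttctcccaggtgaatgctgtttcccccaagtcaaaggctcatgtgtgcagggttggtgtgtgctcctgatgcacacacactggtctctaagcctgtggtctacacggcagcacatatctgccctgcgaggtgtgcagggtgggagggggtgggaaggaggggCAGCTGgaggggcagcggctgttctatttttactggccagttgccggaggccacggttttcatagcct
The Ckm and Tnni1 windows each held CAGCTG alone of the 4 motifs. Acta1 held CAGCTG, a CArG box and TATAAA, and Myh4 held all 4.

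Libraries held 11147431 to 15692431 counted reads. Hair growth separated them: the mean log2 level of 14 hair follicle keratin genes, of the hair shaft and the inner root sheath, was 10.8 to 13.1 in 6 libraries (WT 1 and 4, N-IKKα 8, 9 and 11, C-IKKα 14) and 1.80 to 5.94 in the other 12. These are called growing-hair and resting-hair libraries below, a split made from hair genes alone and not by the study. By the Y-linked gene Ddx3y, 8 mice were male and 10 female, and all 6 growing-hair libraries were female. Chuk, which encodes IKKα, did not pass the test against WT in N-IKKα (log2 difference −0.02, limma adjusted p = 0.969) or in C-IKKα (log2 difference −0.17, limma adjusted p = 0.948), and the sources used here do not say which form the transgene carries. No pair of libraries was a copy. The labels name 18 separate mice, so p-values reflect the spread between mice.

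The 35 genes together took 1.90% ± 0.996 (SD, n = 6) of the counted reads in WT, 1.13% ± 0.334 in N-IKKα and 1.78% ± 0.569 in C-IKKα. In WT the shares were 1.34, 2.13, 2.68, 0.303, 3.10 and 1.87% in mice 1 to 6. In N-IKKα they were 1.18, 0.768, 1.06, 1.56, 0.763 and 1.45% in mice 7 to 12. In C-IKKα they were 1.94, 2.48, 2.33, 1.12, 1.19 and 1.62% in mice 13 to 18. The lowest and the highest library, WT 4 and WT 5, were both WT and stood 10.2-fold apart, so the spread within WT covered all of N-IKKα and C-IKKα. The exact 95% binomial interval for WT 4 was 0.300 to 0.306%, which covers counting error only. WT 4 was the lowest library for 28 of the 33 members that had any read, and WT 5 or WT 3 was the highest for 15 and 14 of them. In a share of bulk skin reads, fewer muscle fibres, less RNA per fibre and more RNA from other cells cannot be told apart.

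**Figure D1:**
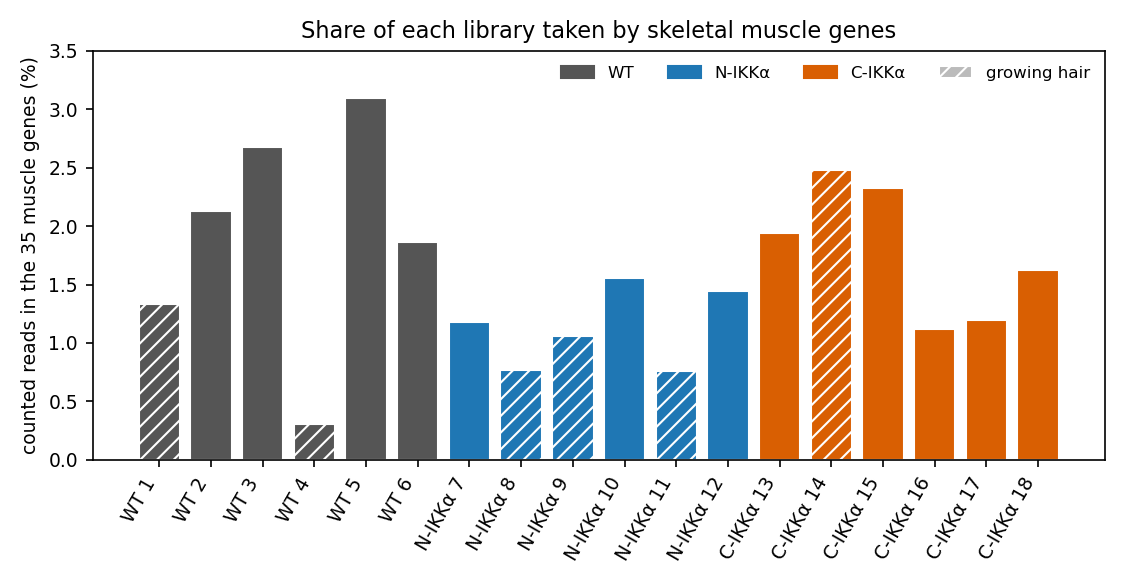
Percent of counted reads in the 35 muscle genes (vertical axis) for each of the 18 libraries, coloured by genotype and hatched for growing hair, with 1 bar per mouse. Shares ran from 0.303% in WT 4 to 3.10% in WT 5, and every growing-hair library except C-IKKα 14 (2.48%) was at 1.34% or less.

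Shares were lower in most growing-hair libraries. In the 12 resting-hair libraries the share ran from 1.12 to 3.10% (median 1.75%), and in the 6 growing-hair libraries from 0.303 to 2.48% (median 0.913%). The ranges overlapped: C-IKKα 14, with growing hair, had the highest share of its group, and WT 1, also with growing hair (1.34%), lay above 3 resting-hair libraries (C-IKKα 16, N-IKKα 7 and C-IKKα 17). Of the 33 members tested, 31 had a lower median in growing-hair than in resting-hair libraries. The exceptions were Tnni1 and Tnnt1, slow troponin genes described below. Of all genes tested, 13.7% had no overlap between the hair states, in either direction, and 8.45% were higher in growing hair without overlap. Tnni1 was the only member among either.

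Myosin heavy chains are the motors of the thick filament, and each fibre type uses its own. Myh4 encodes the 2B chain of the fastest fibres. It ran from 3218 to 64847 normalized counts in WT (median 21160), from 933 to 25516 in N-IKKα (median 11286) and from 8301 to 42006 in C-IKKα (median 19448). The groups overlapped widely, and the highest library was 69.5 times the lowest, against 12.8 times for Ckm. Myh1, the 2X chain, ran from 570 to 6091 in WT (median 2458), 806 to 2914 in N-IKKα (median 1637) and 1363 to 4732 in C-IKKα (median 2692). Myh2, the 2A chain of fast oxidative fibres, ran from 240 to 1849 in WT (median 1090), 232 to 673 in N-IKKα (median 501) and 250 to 974 in C-IKKα (median 717). Both overlapped between all 3 groups, and the WT range was the widest for each. Myh7, the slow chain, was listed at 0 in all 18 libraries.

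Per kilobase of exon, the mean over 18 libraries was 3381 normalized counts for Myh4, 388 for Myh1 and 108 for Myh2. As a share of the reads of these 3 genes, Myh4 took 68.6 to 94.8% in 17 libraries. The exception was N-IKKα 11, where Myh4 took 21.5% (exact 95% binomial interval 20.2 to 22.7%) and Myh1 67.0%. There Myh1 stood at 2914 and Myh4 at 933 normalized counts, so that Myh1 was 3.12 times as high. Myh2 also took its largest share in that library, 11.5%, against 0.953 to 7.64% in the rest. These 3 genes are similar in sequence, and how the counting split shared reads is not given in the sources used here.

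**Figure D2:**
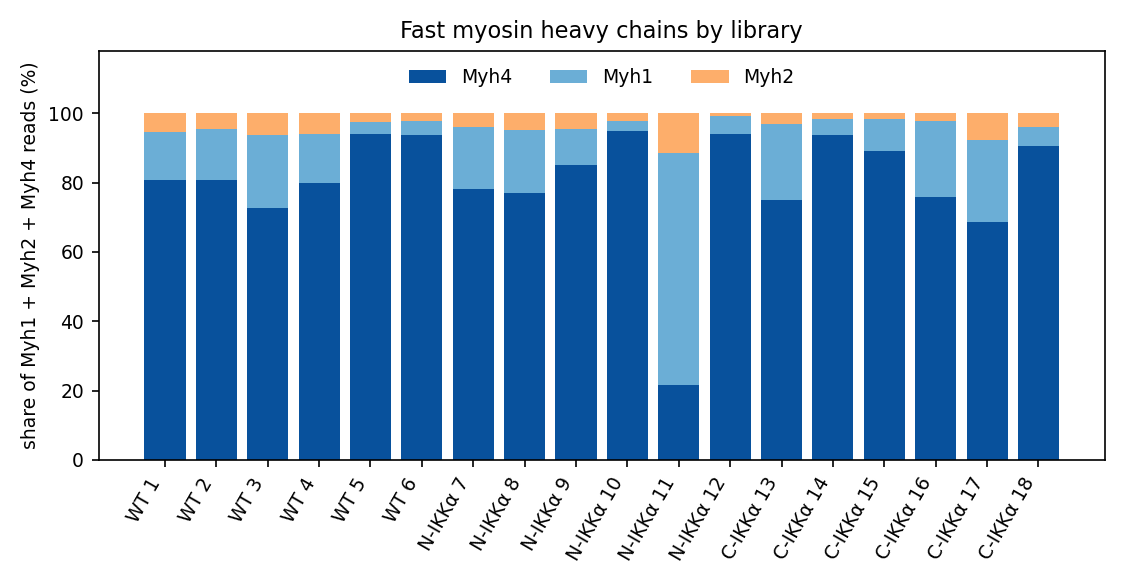
Share of the reads of Myh4, Myh1 and Myh2 (stacked, adding to 100%) in each of the 18 libraries. Myh4 took 68.6 to 94.8% everywhere except in N-IKKα 11, where it took 21.5% and Myh1 67.0%.

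Troponin makes the thin filament sensitive to calcium: troponin I blocks the filament, troponin T anchors the complex and troponin C binds calcium, and each has a fast and a slow form. The fast troponin I gene Tnni2 ran from 239 to 3612 normalized counts in WT (median 2103), 765 to 2101 in N-IKKα (median 1376) and 1383 to 3153 in C-IKKα (median 1854). The fast troponin T gene Tnnt3 ran from 491 to 5754 (median 3286), 1009 to 2495 (median 1887) and 2367 to 4120 (median 2858) in the same order. In both genes WT 4 was the lowest library and WT 3 the highest. The slow gene Tnni1 ran from 1.203 to 52.4 normalized counts in WT (median 8.87), 1.03 to 42.6 in N-IKKα (median 15.5) and 0 to 32.6 in C-IKKα (median 2.46). The slow gene Tnnt1 ran from 4.77 to 28.2 (median 13.8), 7.04 to 49.2 (median 9.28) and 1.84 to 43.2 (median 7.30). Values under 2.45 to 3.61 normalized counts, depending on the library, are at or under 3 reads.

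Tnni1 separated by hair state. It was 24.0 to 52.4 in the 6 growing-hair libraries and 0 to 10.7 in the 12 resting-hair libraries. Of all genes tested, 8.45% were likewise higher in growing hair without overlap. WT 4, with the least muscle RNA, had 33.1 normalized counts of Tnni1, and WT 5, with the most, had 7.01. Tnnt1 was 7.30 to 49.2 in growing hair and 1.84 to 16.4 in resting hair, which overlap. The log2 ratio of Tnni1 to Tnni2 was −6.36 to −2.81 in growing-hair libraries (median −4.61) and −11.6 to −7.75 in resting-hair libraries (median −9.003). That of Tnnt1 to Tnnt3 was −7.30 to −4.49 (median −5.79) and −10.5 to −7.43 (median −8.07). Neither ratio overlapped between the hair states, although the nearest values of Tnnt1 to Tnnt3 were close. The fast genes add to both shifts, with lower medians in growing than in resting hair (Tnni2 956 against 1953, Tnnt3 1215 against 2703). No share over all genes was made for such ratios. Whether the reads of Tnni1 and Tnnt1 came from muscle was not tested.

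**Figure D3:**
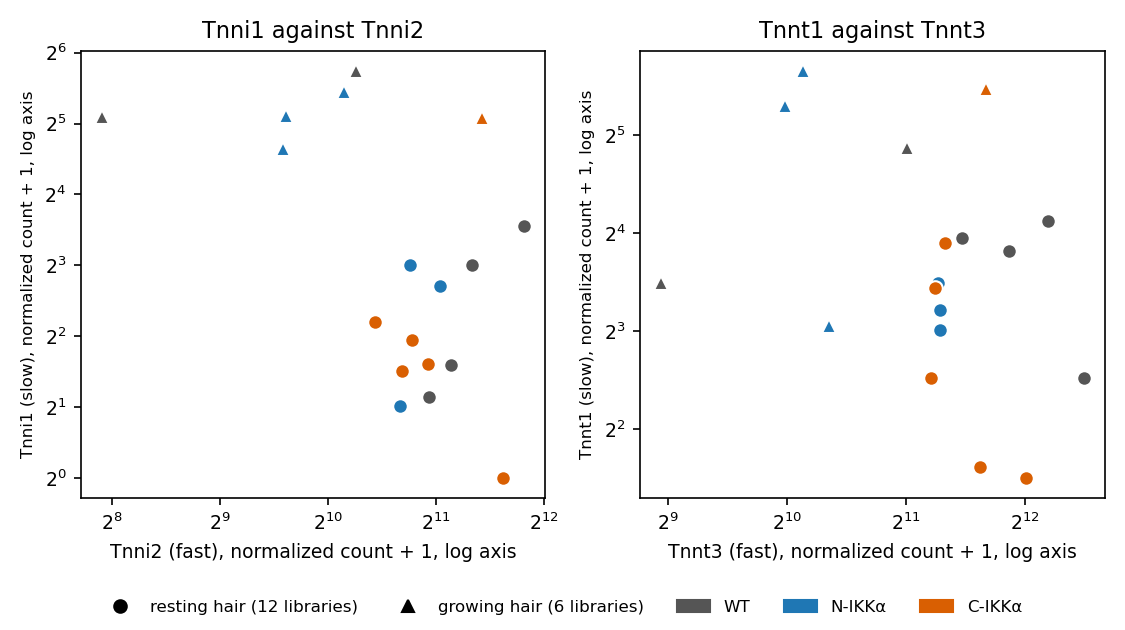
Slow troponin genes (vertical axes) against their fast forms (horizontal axes), as normalized counts + 1 on log2 axes, with 1 point per library, triangles for growing hair and circles for resting hair. Tnni1 was at 24.0 or more in all 6 growing-hair libraries and at 10.7 or less in all 12 resting-hair libraries, whatever the level of Tnni2.

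Between genotypes the slow-to-fast ratios did not pass the test. The mean log2 ratio of Tnni1 to Tnni2 was −7.21 ± 2.87 (SD, n = 6) in WT, −6.64 ± 2.21 in N-IKKα and −8.92 ± 1.71 in C-IKKα. The largest difference, N-IKKα against C-IKKα, was 2.28 (SE 1.14), with an exact two-sided permutation p of 0.0671, adjusted to 0.331 over 6 tests. For Tnnt1 to Tnnt3 that difference was 1.67 (SE 0.966), with an exact permutation p of 0.110, adjusted to 0.331. Growing-hair libraries were 2 of 6 in WT, 3 of 6 in N-IKKα and 1 of 6 in C-IKKα. With resting-hair libraries alone, the N-IKKα minus C-IKKα difference of Tnni1 to Tnni2 was 0.86. Left without N-IKKα 12 or without C-IKKα 14, it was 2.88 (exact permutation p = 0.0346, not adjusted) or 2.79 (exact permutation p = 0.0433, not adjusted).

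Fast and slow genes were also compared as pairs within each hair state, since the libraries form separate clusters. The 4 pairs were Tnni2 with Tnni1, Tnnt3 with Tnnt1, Myoz1 with Myoz2, and the calcium pumps Atp2a1 and Atp2a2, which gave 8 relations. None passed the test after adjustment. The smallest p was that of Atp2a1 with Atp2a2 in the 12 resting-hair libraries, with r of −0.524 (permutation p = 0.0654, adjusted 0.411) and rho of −0.427 (permutation p = 0.166, adjusted 0.666), and r of −0.316 once the 2 libraries farthest from the median were left out. In the 6 growing-hair libraries r of that pair was −0.591 and rho −0.371 (exact permutation p = 0.236 and 0.497, adjusted 0.472 and 0.785), and r was 0.152 with 2 libraries left out. Over 18 libraries Atp2a2 ran only from 2763 to 4807 normalized counts, 1.74-fold, with r of −0.685 with log2 Ckm. How much of its reads came from muscle was not tested, so this pair may not compare fast with slow fibres. The largest r was that of Myoz1 with Myoz2 in the 6 growing-hair libraries, with Pearson's r of 0.703 (exact permutation p = 0.103, adjusted 0.411) and Spearman's rho of 0.771 (exact permutation p = 0.103, adjusted 0.666). Leaving out the 2 libraries farthest from the median gave r of 0.693. In the 12 resting-hair libraries, Tnni2 with Tnni1 gave r of 0.126 (permutation p = 0.708, adjusted 0.708) and rho of 0.175 (permutation p = 0.589, adjusted 0.785), and leaving out 2 libraries in the same way gave r of 0.293.

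The mean log2 level of the 14 fast genes, less that of the 3 slow genes with reads, summarises this. It was 4.27 to 5.74 in growing-hair libraries (median 4.45) and 6.18 to 8.75 in resting-hair libraries (median 7.09), without overlap. In resting-hair libraries it was 7.09 ± 0.177 (SD, n = 4) in WT, 6.74 ± 0.600 (n = 3) in N-IKKα and 7.27 ± 1.03 (n = 5) in C-IKKα. The ranges of the 3 groups, 6.88 to 7.30, 6.18 to 7.38 and 6.19 to 8.75, overlapped, and the difference was not tested. Across hair states the 3 slow genes did not move together. Median normalized counts in growing and resting hair were 33.3 and 2.46 for Tnni1 and 33.2 and 9.08 for Tnnt1. For Myoz2 they were 55.5 and 85.3, in the other direction.

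Troponin C was hardly counted. The fast gene Tnnc2 ran from 3.42 to 23.4 normalized counts in WT (median 16.8), 0.932 to 24.6 in N-IKKα (median 8.48) and 5.55 to 15.6 in C-IKKα (median 9.04). The slow gene Tnnc1 was listed at 0 in every library. In a GRCm38 annotation, 74% of the exon bases of Tnnc2 are also exon of Ube2c on the opposite strand. Of 240 protein-coding genes that share 95% or more of their exon bases with another gene, 49.6% were listed at 0 throughout, against 19.9% of the 15342 that share none. Tnnc2 is in neither of these classes, Tnnc1 shares none and Myh7 shares 13.3%. Whether overlap lowered the count of Tnnc2 was not tested. Of 79 genes with ribosomal protein symbols, 3 were listed at 0 throughout, and whether skin uses those 3 was not checked. A listed 0 alone was not taken to show that a gene is silent.

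Actin, titin and nebulin carry the sarcomere's filaments. Acta1, skeletal alpha-actin, ran from 6344 to 77243 normalized counts in WT (median 50869), 17856 to 32845 in N-IKKα (median 27291) and 27079 to 59588 in C-IKKα (median 41263). All N-IKKα values lay inside the WT range, as did all C-IKKα values. Ttn, the elastic giant, ran from 12418 to 116861 over the 18 libraries and Neb, the ruler of the thin filament, from 949 to 8343. The fast light chain genes Myl1 and Mylpf ran from 509 to 6786 and from 149.5 to 1164. Of the myosin-binding proteins, Mybpc2, the fast form, ran from 292 to 3925, and Mybpc1, known as the slow form and also used in fast fibres, from 780 to 5087. Per kilobase of exon Acta1 stood at 25239, Myl1 at 1388, Ttn at 461 and Neb at 160, as means over 18 libraries.

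The Z-disc ties filaments together at each end of the sarcomere. Des, the muscle intermediate filament, ran from 1219 to 14469 in WT (median 9005), 3352 to 6957 in N-IKKα (median 5061) and 5460 to 11309 in C-IKKα (median 7677). Myoz1, which binds calcineurin in fast fibres, ran from 295 to 3531 (median 2410), 652 to 1900.2 (median 1231) and 1422 to 3249 (median 1919). Its slow relative Myoz2 ran from 10.3 to 197 (median 134), 31.7 to 90.4 (median 47.4) and 38.0 to 93.4 (median 82.5). In each of the 3 genes N-IKKα had the lowest median and overlapped both other groups. The other Z-disc and anchoring genes had ranges over 18 libraries of 216 to 3090.1 for Actn2, 250.01 to 3518 for Actn3, 1115 to 8429 for Ldb3, 458 to 5523 for Tcap and 932 to 12597 for Xirp2.

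Calcium release and uptake start and end each twitch. Atp2a1, the fast calcium pump, ran from 2726 to 31965 in WT (median 19756), 6363 to 17755 in N-IKKα (median 8638) and 10577 to 30977 in C-IKKα (median 18912). Pvalb, the calcium buffer of fast fibres, ran from 352 to 5595 (median 3292), 737 to 2746 (median 1604) and 1590 to 4987 (median 2362). Again N-IKKα had the lowest median and lay inside the WT range. The release channel Ryr1 ran from 565 to 5536 over the 18 libraries, its voltage sensor Cacna1s from 99.3 to 1335, the store protein Casq1 from 389 to 5460 and its anchor Trdn from 1324 to 15654.

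Among the energy genes, Ckm, muscle creatine kinase, ran from 1829 to 23468 in WT (median 13203), 3618 to 10404 in N-IKKα (median 7758) and 7401 to 23447 in C-IKKα (median 10710). Mb, myoglobin, which stores oxygen, ran from 184 to 3001 (median 1049), 376 to 1134 (median 595) and 770 to 1352 (median 1173). For Ckm the groups overlapped, and for Mb N-IKKα 7 was the highest of its group. Pygm, glycogen phosphorylase, ran from 808 to 7626 over the 18 libraries and Eno3, muscle enolase, from 594 to 4517.

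Most members moved with each other across libraries. Over 18 libraries, 21 of the 32 other members tested had a Pearson r above 0.9 with log2 Ckm, a likeness shared by 1.05% of all tested genes. They were 10 of the 14 fast genes and 11 of the 15 shared genes, and none of the 3 slow genes. Pvalb (r = 0.986), Mybpc2 (0.983) and Myoz1 (0.981) were nearest. The slow genes had few reads: 0 to 52 for Tnni1, 2 to 53 for Tnnt1 and 9 to 195 for Myoz2. The fast gene Tnnc2, with 1 to 24 reads, had r of 0.615. The part of few reads in these r values was not tested. Within the 12 resting-hair libraries 16 members were above 0.9, and within the 6 growing-hair libraries 21. The growing-hair 21 were not all the same genes: Tcap (0.9275) was among them and Des (0.8964) was not. No share over all genes was made within a hair state. These are descriptions, since all members share the depth and the tissue piece of each library.

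A smaller set lay nearer to Myh1, and was seen only once the values were known. Over the 12 resting-hair libraries Actn2 (r = 0.953), Mybpc1 (0.951), Myoz2 (0.850) and Mb (0.835) followed Myh1, the 4 of 32 members above 0.8, against 0.243% of all tested genes. The same genes had r with Ckm of 0.442, 0.470, 0.328 and 0.376 in those libraries. Myh1 itself had r of 0.328 with Ckm and −0.183 with Myh4. WT 5, with the most Myh4 (64847), had 2483 normalized counts of Myh1, near the resting-hair median of 2498, and C-IKKα 15 was high for both (31218 and 3330.4). The slow troponins were in neither set: over 18 libraries r with Ckm was −0.427 for Tnni1 and −0.125 for Tnnt1. Myh4 (r with Ckm 0.873), Tcap (0.867), Tnnc2 (0.615) and Myh2 (0.606) were in neither set as well. The 2 sets rest on unlike limits, 0.9 over 18 libraries and 0.8 over 12.

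**Figure D4:**
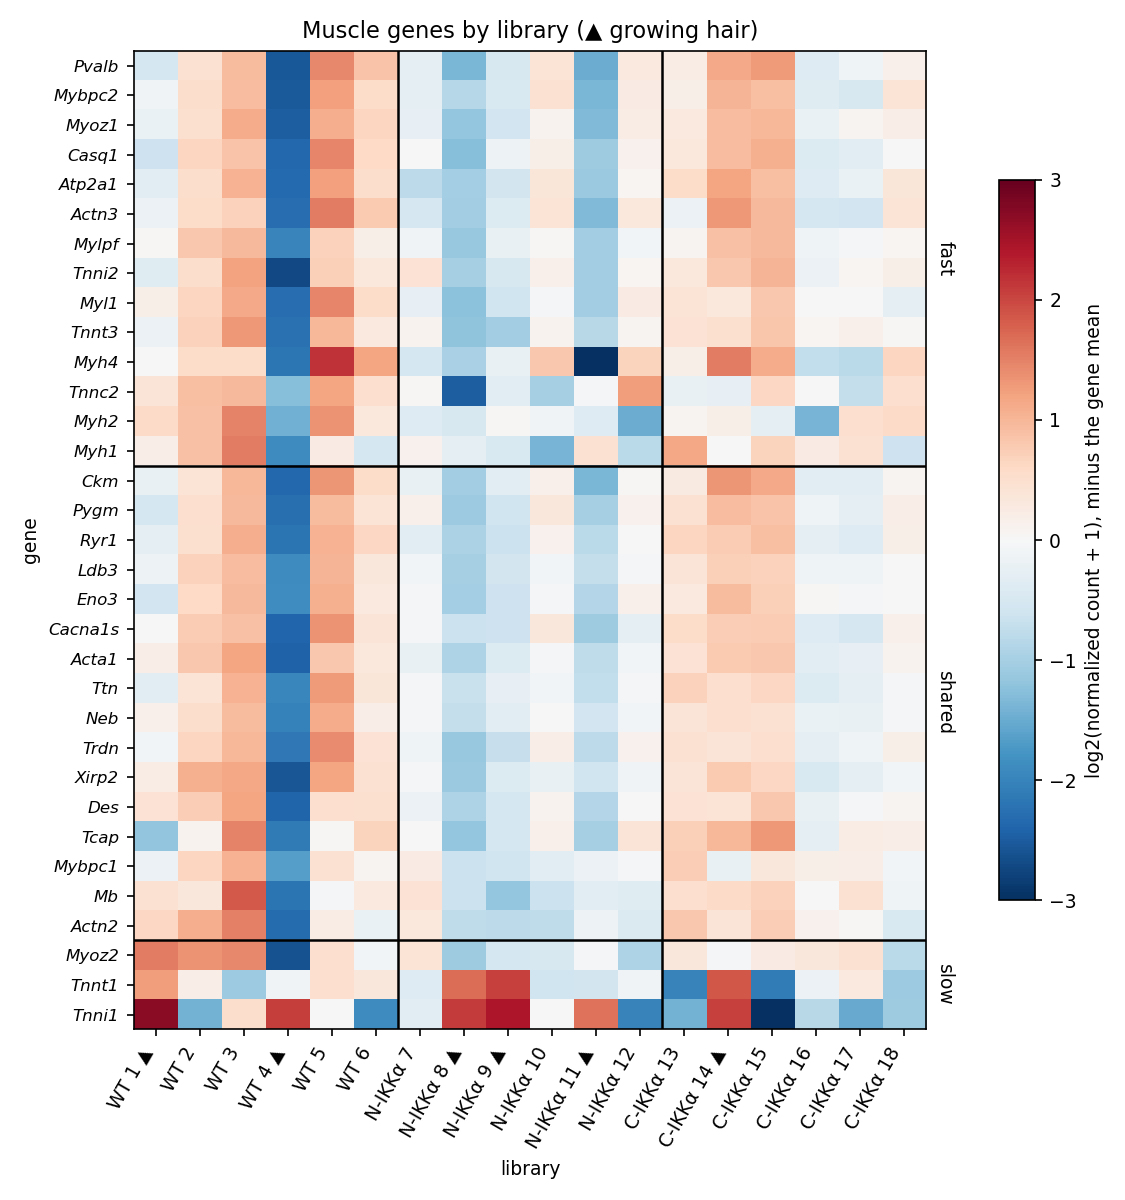
Level of each of the 33 members with reads in each of the 18 libraries, as log2(normalized count + 1) minus the gene's mean, from blue (lower) to red (higher), with genes in rows by class and a triangle for growing hair. WT 4 is blue in all fast and shared genes, N-IKKα 11 stands out for Myh4, and Tnni1 is red in the 6 growing-hair libraries.

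No member passed the test in N-IKKα against WT. With limma over 17667 genes, 0 of 33 members had an adjusted p below 0.05, and 0.00566% of all genes did. The median log2 difference of the members was −0.56, against 0.01 for all genes, and 31 of the 33 were negative, against 48.8% of all genes. At an unadjusted p below 0.05 stood 1 member, Myh2 (log2 difference −0.99, SE 0.43, limma adjusted p = 0.880), against 4.14% of all genes. Myh4 differed by −1.07 (SE 0.75), Myoz2 by −0.79 (SE 0.54), Atp2a1 by −0.62 (SE 0.48), Tnnt3 by −0.61 (SE 0.45) and Myoz1 by −0.61 (SE 0.48). Ckm and Pvalb differed by −0.58 (SE 0.50 and 0.55), Mb by −0.57 (SE 0.44), Acta1 by −0.56 (SE 0.45), Des by −0.55 (SE 0.43) and Tnni2 by −0.27 (SE 0.49). For all of these the limma adjusted p was 0.880 or higher. With edgeR and DESeq2, 0 members were called, and 10 and 19 had an unadjusted p below 0.05, against 5.09 and 6.06% of all genes.

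The size of that difference depended on which libraries entered the fit. WT 4, with 0.303% muscle reads, is in the WT group, and without it the median difference was −1.06 and 30 of 33 members had an unadjusted p below 0.05, against 14.5% of all genes. The smallest limma adjusted p was then 0.112. Without the 6 growing-hair libraries the median difference was −0.80, all 33 were negative, and 26 had an unadjusted p below 0.05, against 6.97% of all genes, with a smallest limma adjusted p of 0.514. WT 4 is among those 6 libraries, so its part and that of hair state cannot be told apart there. With all libraries kept and the hair keratin level as a covariate, the median was −0.41, and with sex added −0.39. In each of these 2 fits 1 member had an unadjusted p below 0.05, against 1136 and 1235 of all 17667 genes. In the resting-hair libraries the muscle share was 1.87 to 3.10% in WT (n = 4) and 1.18 to 1.56% in N-IKKα (n = 3), without overlap. Of the 33 members, 22 were lower in all 3 resting-hair N-IKKα libraries than in all 4 of WT, against 4.14% of all genes. Ckm, for example, was 8014, 10404 and 9644 in N-IKKα 7, 10 and 12, and 12606, 18657, 23468 and 13801 in WT 2, 3, 5 and 6. Of these libraries 2 of 4 in WT and 2 of 3 in N-IKKα were male. Most members moved together across libraries, so the counts of members here and below are not separate results. They largely repeat the muscle share of the same few mice.

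In C-IKKα against WT 0 of 33 members were called by limma, and 0.345% of all genes were. The median log2 difference was 0.12, with 23 members positive and 10 negative, and none had an unadjusted p below 0.05, against 5.73% of all genes. The smallest limma adjusted p among the members was 0.985. Tnni1 differed by −1.30 (SE 0.94) and Tnnt1 by −0.72 (SE 0.66). The direction of the rest depended on the libraries and on the tool. Without WT 4 the median was −0.34 with 32 members negative, and 5 had an unadjusted p below 0.05, against 5.44% of all genes. Without the growing-hair libraries the median was −0.62 with all 33 negative. There 22 members had an unadjusted p below 0.05, against 12.6% of all genes, and the smallest limma adjusted p was 0.0503. With the hair keratin level as a covariate the median was 0.03, with sex −0.02 and with both 0.07. In these 3 fits 0 members had an unadjusted p below 0.05, against 1662, 929 and 1685 of all 17667 genes. The muscle share of the 5 resting-hair C-IKKα libraries, 1.12 to 2.33%, overlapped that of WT, and 0 members were separated without overlap, against 1.40% of all genes. Of the 5, 4 were male. With edgeR 25 members were negative and with DESeq2 26, with medians of −0.13 and −0.14, and 0 had an unadjusted p below 0.05 by either, against 6.1 and 7.18% of all genes.

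In N-IKKα against C-IKKα 0 of 33 members were called, against 0.43% of all genes. The median log2 difference was −0.67, 31 members were negative, and 0 had an unadjusted p below 0.05, against 11.7% of all genes. Ckm differed by −0.82 (SE 0.50), Atp2a1 by −0.91 (SE 0.48), Myoz1 by −0.87 (SE 0.48), Pvalb by −0.86 (SE 0.55), Acta1 by −0.67 (SE 0.45) and Myh4 by −1.02 (SE 0.75). Only the slow troponins were positive, Tnni1 by 1.60 (SE 0.94) and Tnnt1 by 0.88 (SE 0.66). The smallest limma adjusted p was 0.447. Without the growing-hair libraries the median was −0.18 with 27 negative, 1 member had an unadjusted p below 0.05, against 6.91% of all genes, and Myh4 differed by 0.25. No member was lower in all 3 resting-hair N-IKKα libraries than in all 5 of C-IKKα (0 of 33, against 2.81% of all genes). With the hair keratin level as a covariate the median was −0.38, and with sex added −0.45. Without WT 4, which enters this comparison only through the shared spread, 22 members had an unadjusted p below 0.05, against 16% of all genes, with a smallest limma adjusted p of 0.207. By edgeR 0 and by DESeq2 8 members had an unadjusted p below 0.05, against 12.6 and 15.1% of all genes. The comparisons share their libraries, so they are not independent of each other.

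**Figure D5:**
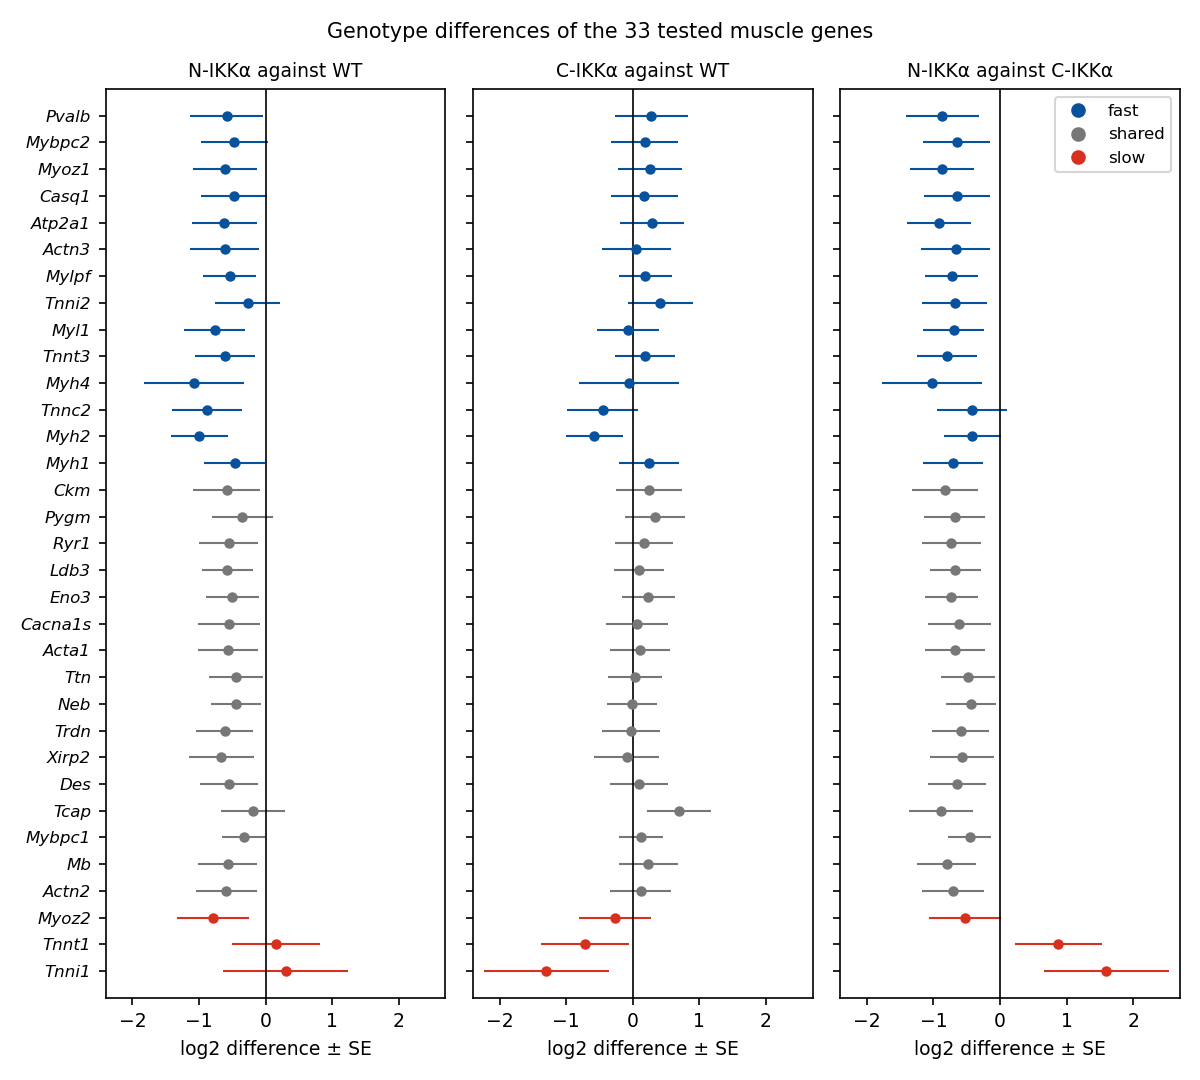
Log2 differences (points) with the moderated SE (bars) of the 33 tested members in the 3 comparisons, coloured by fibre class. Medians were −0.56, 0.12 and −0.67, and no member passed the test in any of them.

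Further muscle genes gave the same picture. None of 22 further sarcomere genes was called in N-IKKα against WT, all 22 were negative and their median was −0.51. Cryab, a small heat shock protein, differed by −0.50 (SE 0.22) and Unc45b, a myosin chaperone, by −0.86 (SE 0.39). None of 12 calcium handling genes was called (11 negative, median −0.52). Sln, sarcolipin, an inhibitor of the calcium pump, differed by −2.45 (SE 0.81, limma adjusted p = 0.880), with 7.99 to 458 normalized counts in WT and 1.04 to 22.9 in N-IKKα. Its WT value rested on WT 1 (458) and WT 2 (122). None of 13 energy genes was called (12 negative, median −0.49), with Gys1, glycogen synthase, at −0.43 (SE 0.23) and Ckmt2, mitochondrial creatine kinase, at −0.85 (SE 0.48).

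None of 12 genes of the dystrophin complex and membrane repair was called in N-IKKα against WT (all negative, median −0.44), with Sgcb, a sarcoglycan, at −0.43 (SE 0.16). None of 10 genes of the neuromuscular junction was called (all negative, median −0.58), with the acetylcholine receptor subunit Chrnb1 at −0.49 (SE 0.23) and its organiser Musk at −0.87 (SE 0.44). None of 14 fibre type regulators was called (12 negative, median −0.30), with Ppargc1a at −0.36 (SE 0.21) and Tead4 at −0.46 (SE 0.28). None of 7 atrophy genes was called (5 negative, median −0.20), with the ubiquitin ligases Fbxo32 at −0.43 (SE 0.17) and Trim63 at −0.59 (SE 0.45). None of 5 further slow fibre genes was called (2 negative, median 0.08). Of that list of 8, the slow myosin light chain genes Myl2 (0 to 3.02 normalized counts) and Myl3 (0 to 10.4) and the slow pump regulator Pln (0) were at or near 0 throughout. Others of the list were not: Casq2 ran from 76.2 to 359 and Csrp3 from 41.1 to 1042. Median normalized counts in growing and resting hair were 250 and 110 for Casq2. For Csrp3 they were 184 and 245, in the other direction.

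Genes of young or regenerating muscle stood apart in 1 mouse. In WT 1 Myog, which drives the last step of fibre formation, was at 451 normalized counts, against 0 to 87.7 in the other 17 libraries. There Myh3, the embryonic myosin, was at 244 (0 to 15.1 elsewhere), the fusion genes Mymk and Mymx at 56.4 and 22.2 (at most 2.02 and 6.15 elsewhere) and the fetal receptor subunit Chrng at 30.2 (at most 4.03 elsewhere). WT 2 was next for Myog, Myh3 and Chrng. The stress-responsive gene Ankrd2 was at 383 in WT 1, against 5.28 to 31.2 elsewhere, and Csrp3 at 1042, against 41.1 to 622. The muscle share of WT 1, 1.34%, was within the range of the other libraries. These genes were picked after their values were seen, and no cause was tested.

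None of 7 satellite cell and myogenic genes was called in N-IKKα against WT (6 negative, median −0.63), with the satellite cell adhesion gene Cdh15 at −0.95 (SE 0.42) and Myf5 at −0.86 (SE 0.52). None of 5 embryonic and denervation genes was called in N-IKKα against WT (3 negative, median −0.19).

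Markers of other cells moved with the muscle genes in part. Adipocyte markers had a median r of 0.732 with log2 Ckm (10 genes, 0.381 to 0.874), endothelial markers 0.746 (8 genes, 0.615 to 0.814), fibroblast markers 0.439 (10 genes), smooth muscle markers 0.288 (10 genes), Schwann cell markers 0.595 (8 genes) and hair follicle keratins −0.582 (14 genes). The summed level of the 10 adipocyte genes was 27532 to 113904 in WT, 31671 to 82069 in N-IKKα and 44250.1 to 78512 in C-IKKα. In N-IKKα against WT all 10 adipocyte genes (median −0.31), all 8 endothelial genes (median −0.29) and all 4 brown adipocyte genes tested (median −0.36) were negative, as most muscle genes were. None of these marker genes was called there, and their part in the muscle differences was not tested. Of 10 heart muscle genes 5 were tested, and the 10 summed to 280 to 733 normalized counts in WT. The sum was 320 to 952 in N-IKKα and 353 to 688 in C-IKKα. Among the heart genes not tested, Actc1 and Nkx2-5 were listed at 0, and Nppa and Myl7 had at most 2 reads in any library. The brown fat gene Ucp1 was at 0 to 3.13 normalized counts.

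The genes outside the lists with the pattern most like Ckm were Hjv (r = 0.983), Gm18795 (0.976), Kbtbd12 (0.975), Klhl31 (0.974), Rragd (0.973), Aldoa (0.971), Adssl1 (0.971), Tpi1 (0.969), Fbxo40 (0.968) and Cacng6 (0.968), over 18 libraries. Hjv, a bone morphogenetic protein co-receptor, ran from 151 in WT 4 to 1537 in WT 5. Aldoa and Tpi1 are enzymes of glycolysis used by many cells, and they ran from 1887 to 8764 and from 575 to 2211. In all, 127 genes that were neither members nor on a list had r above 0.9.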

How the data were processed

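Back skin RNA of 18 mice was extracted with TRIzol and sequenced from a stranded mRNA kit, per the labels' protocols. Reads were counted with featureCounts on GRCm39, per the submitters' processing notes; the strand setting is not given in the sources used here. Values as deposited are a signal: counts that the authors divided by 1 size factor per library. Every value was a whole multiple of 1 read (tolerance 0.001 reads, 100% of values), so whole reads were recovered. Of the genes in the table, 1347 have an ID but no symbol and were kept in the fit where they passed the filter. Depth was 11147431 to 15692431 counted reads per library, and exact binomial intervals and the limit of 3 reads cover counting error only.

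Genes with at least 10 normalized counts in at least 6 libraries were tested (17667 of 55357). limma (3.58.1, R 4.3.3) was run with an intensity trend on log2(normalized count + 1) over all 18 libraries, with 3 genotype contrasts and Benjamini-Hochberg adjustment at 0.05. Fold changes are on that scale and understate the change of low genes. Ratios of slow to fast troponin genes were compared with exact two-sided permutation tests. edgeR (4.0.16) and DESeq2 (1.42.0) on the recovered reads, other pseudocounts, filters, scalings and covariates, and each library left out were tried as alternatives. Hair state was read from 14 keratin genes of the hair shaft and inner root sheath (mean log2 above 8) and sex from Ddx3y (above 500 normalized counts).

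Exon lengths and overlaps came from a GRCm38 annotation matched by gene ID (52081 genes, all 35 members). The members and lists were chosen with earlier results of these data known. Genes named are the members, the 2 genes of each further list with the smallest p in N-IKKα against WT or those called, and the 10 genes most like Ckm; others named were chosen after their values were seen, and a few genes of these lists are not reported here. Ratios and correlations planned with Tnnc1 and Myh7 were not run, since both are listed at 0, and correlations of fast with slow genes were made within hair states.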

Additional observations from a re-analysis of the deposited data

Results flagged for a closer look

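Of 127 groups of 6 libraries, 16 had a highest or lowest library whose gap to its neighbour, as a share of the group's range (log2 values, except the Myh4 share), passed Dixon's 95% limit. Chance gives about 1 in 20 groups that were chosen without sight of the values. Some groups, among them those of Mymk, Mymx and Ankrd2, were of genes picked after their values were seen. That rate does not apply to them. In 11 of them WT 4 lay far below the other WT libraries: the muscle share was 0.303% of reads, and normalized counts were 149.5 for Mylpf, 509 for Myl1, 3.42 for Tnnc2, 295 for Myoz1, 292 for Mybpc2, 6344 for Acta1, 949 for Neb, 99.3 for Cacna1s, 1219 for Des and 932 for Xirp2. WT 1 lay far above the other WT libraries for Mymk (56.4), Mymx (22.2) and Ankrd2 (383 normalized counts). N-IKKα 12 was far below its group for Myh2, at 232 normalized counts, and N-IKKα 11 for the Myh4 share of fast myosin reads, at 21.5%. These groups share libraries and genes that move together, so they are not independent of each other.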

How the results depend on the processing

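For 61 results, 1648 values were computed under other settings, and 6 had the other sign. Of these, 5 were the members' median in C-IKKα against WT (0.12), which was −0.34 without WT 4, −0.02 with sex as a covariate, −0.13 with edgeR, −0.14 with DESeq2 and −0.62 without the growing-hair libraries. The remaining one was Myh4 in N-IKKα against C-IKKα, at 0.25 without the growing-hair libraries (limma adjusted p = 0.977). No member was called in any of the 31 alternative fits of each comparison. With each library left out in turn, the median log2 difference of the members ran from −1.06 to −0.36 in N-IKKα against WT, from −0.34 to 0.32 in C-IKKα against WT and from −0.78 to −0.55 in N-IKKα against C-IKKα. The difference of the Tnni1 to Tnni2 ratio between N-IKKα and C-IKKα ran from 1.74 to 2.88 with each library left out, and the exact permutation p was under 0.05 without N-IKKα 12 (2.88) or C-IKKα 14 (2.79). The cause of these changes was not tested. No paired analysis was possible because the 3 groups share no replicate numbers. Tnnc2 (1 to 24 reads), Tnni1 (0 to 52) and Tnnt1 (2 to 53) rest on few reads, which limits their precision.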
